A study of Mus musculus with 100 samples.

Results

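The genes described here encode the mitochondrial ribosomal proteins, named Mrpl for the large subunit and Mrps for the small one. They were taken as all protein-coding mouse genes whose symbol starts with Mrpl or Mrps and a digit, with 1 transcript row per gene. There were 78 such genes, 49 Mrpl and 29 Mrps, among 32484 genes with a usable row, and all 78 passed the minimum mean value of 10 in each of the 5 comparisons.

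The mitochondrial ribosome translates the few proteins encoded in mitochondrial DNA, which are core subunits of the oxidative phosphorylation complexes. Its ribosomal RNAs are made inside the organelle, whereas its proteins are encoded in the nucleus, translated in the cytosol and imported. Some of these proteins have a counterpart in the bacterial ribosome and others exist only in mitochondria. White adipocytes use mitochondria for lipid synthesis and fatty acid oxidation, and beige adipocytes use them for heat.

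The series compared fat of mice labelled as adipocyte knockouts of Gps2, a subunit of the NCoR and SMRT corepressor complexes, with fat of wild type mice. The strain label, Adipoq-Cre-Gps2flox/flox, was the same for both genotypes, so the genotype stood only in the sample titles; Adipoq-Cre is active in adipocytes and leaves the other cells of the tissue with the gene. Intra-abdominal fat at 19 weeks of age from the chow series, titled CD, had 3 KO-labelled and 3 WT-labelled samples. Intra-abdominal fat at 11 weeks from the high-fat diet series, titled HFD and 4 weeks in length by the name of its table, had 4 and 4 samples and is called early high-fat fat. Intra-abdominal fat at 19 weeks, titled Epi and 12 weeks by its table's name, had 3 and 3 samples and is called late high-fat fat. Adipocytes of intra-abdominal fat at 19 weeks from that same table name had 2 and 3 samples and are called late adipocytes. Inguinal fat at 8 weeks, titled BA in a series with a beta-adrenergic stimulation arm, had 4 and 4 samples. The labels do not say whether the replicates came from separate animals, so each p-value reflects variation among the samples at hand, part of which may be technical.

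The values are read counts divided by a size factor per library, called normalised values below, and the tables were normalised separately. Reads recovered on the rows used numbered 29444602 to 63456837 per sample. The level of Gps2 did not separate the labels in any table. It was 553 to 663 in KO-labelled and 468 to 701 in WT-labelled chow fat, and 811 to 839 in KO-labelled and 755 to 851 in WT-labelled late adipocytes, so the genotype is given throughout as the label. No source used here says whether the deleted exons lie in the counted row. The 8 adipocyte markers were all detected in every table. Some libraries also held markers of epididymis, which adjoins epididymal fat. The summed value of 6 such genes was 153876 and 141634 in KO-labelled chow fat 1 and 2, and 28.4 in KO-labelled 3, against 49.98, 43744 and 6.40 in WT-labelled chow fat. It was 29.2, 80346 and 24246 in KO-labelled late high-fat fat, against 35.3, 36.4 and 4.40 in the WT-labelled samples.

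The promoters of these genes were examined first, because members that vary together may share sequence features. RefSeq windows from 250 bases before to 50 after a gene start, on GRCm38.p6, were found for 69 of the 78 genes, in 75 windows. The median content of G and C was 58.7% in the windows of these genes and 52.7% in all 32851 windows. The core motif of NRF1, a nuclear regulator of respiratory genes, reads GCGC, any base and TGCGC. It was present, on either strand like all motifs here, in 13 of 75 windows, or 17.3%, against 4.60% of all windows. The ETS motif CCGGAAG, bound by the GABP factor among others, was in 26 windows, or 34.7%, against 8.86% of all. The YY1 motif AAGATGGC was in 12 windows, or 16%, against 2.75% of all. CCAAT, bound by NF-Y, was in 40.0% against 37.4%, and TATAAA in 6.67% against 13.6%. NRF1 and ETS motifs occurred together in 4 windows. Among NRF1, ETS and YY1, no match of 1 motif overlapped a match of another. A match is a string of letters and not a shown binding site. In the windows of nuclear oxidative phosphorylation genes the shares were 25.4% for NRF1, 22.5% for ETS and 12.7% for YY1.

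The windows below show the NRF1, ETS and YY1 motifs in capitals, read 5′ to 3′ on the strand of the gene. All other bases are in lower case, matches of CCAAT and TATAAA included. Mrps26 (small subunit; chr2:130563507-130563806, plus strand) holds overlapping NRF1 strings and an ETS string. Mrpl45 (at the exit of the polypeptide tunnel, facing the inner membrane; chr11:97315466-97315765, plus) holds 3 NRF1 strings. Mrps12 (the decoding centre; chr7:28741772-28742071, minus) holds YY1 and ETS strings and is transcribed away from Sars2, the mitochondrial seryl-tRNA synthetase gene, whose start lies 172 bases away. Mrpl48 (chr7:100583081-100583380, minus) and Mrpl53 (chr6:83108858-83109157, plus), both described below in late adipocytes, hold ETS strings in these windows. Mrpl48 also has windows at chr7:100591365-100591664, chr7:100607573-100607872 and chr7:100608252-100608551, not printed here, and these hold no NRF1, ETS or YY1 string. Mrps6 (chr16:92058086-92058385, plus), considered separately below, holds none of the 3, which says only that these letters are absent from that window.
Mrps26: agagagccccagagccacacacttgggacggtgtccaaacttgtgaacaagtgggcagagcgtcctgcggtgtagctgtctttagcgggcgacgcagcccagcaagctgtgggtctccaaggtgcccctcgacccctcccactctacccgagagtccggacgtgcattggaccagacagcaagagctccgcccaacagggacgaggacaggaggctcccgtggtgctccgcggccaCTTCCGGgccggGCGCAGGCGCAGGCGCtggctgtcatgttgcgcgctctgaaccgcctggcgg
Mrpl45: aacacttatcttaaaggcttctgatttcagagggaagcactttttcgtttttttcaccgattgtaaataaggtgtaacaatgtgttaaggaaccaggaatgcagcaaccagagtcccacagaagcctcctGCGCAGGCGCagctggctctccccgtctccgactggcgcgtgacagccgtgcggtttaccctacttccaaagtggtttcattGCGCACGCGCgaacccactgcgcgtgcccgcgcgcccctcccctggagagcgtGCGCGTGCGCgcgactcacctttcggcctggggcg
Mrps12: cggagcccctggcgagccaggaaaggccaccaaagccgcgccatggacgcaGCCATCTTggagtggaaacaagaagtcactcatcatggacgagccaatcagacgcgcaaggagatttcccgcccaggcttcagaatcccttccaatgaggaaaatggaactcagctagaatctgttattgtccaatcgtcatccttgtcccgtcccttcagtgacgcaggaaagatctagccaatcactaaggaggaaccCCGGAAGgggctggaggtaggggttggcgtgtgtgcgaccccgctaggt
Mrpl48: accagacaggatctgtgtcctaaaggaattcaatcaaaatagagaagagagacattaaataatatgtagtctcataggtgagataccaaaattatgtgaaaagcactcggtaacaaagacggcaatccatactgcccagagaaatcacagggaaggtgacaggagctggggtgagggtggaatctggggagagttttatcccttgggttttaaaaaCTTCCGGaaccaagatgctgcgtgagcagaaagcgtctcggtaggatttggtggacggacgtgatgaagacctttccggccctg
Mrpl53: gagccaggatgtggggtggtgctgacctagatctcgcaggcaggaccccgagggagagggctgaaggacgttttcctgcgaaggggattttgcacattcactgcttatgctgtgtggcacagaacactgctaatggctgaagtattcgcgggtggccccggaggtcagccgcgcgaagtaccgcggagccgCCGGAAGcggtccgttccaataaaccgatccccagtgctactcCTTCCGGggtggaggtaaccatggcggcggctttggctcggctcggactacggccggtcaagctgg
Mrps6: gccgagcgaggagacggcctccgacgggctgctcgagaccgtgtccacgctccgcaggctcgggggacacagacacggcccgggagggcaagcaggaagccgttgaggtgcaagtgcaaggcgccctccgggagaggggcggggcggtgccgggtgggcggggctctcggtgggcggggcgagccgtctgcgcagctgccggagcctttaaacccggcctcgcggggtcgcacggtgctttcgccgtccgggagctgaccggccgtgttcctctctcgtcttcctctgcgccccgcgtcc

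Of the 78 genes, 23 had a protein-coding neighbour on the other strand that starts within 1000 bases, or overlaps by up to 200 bases, in a head-to-head arrangement. The smallest positive gap was the 26 bases between Mrpl54 and Apba3. For 4 genes, Mrpl53, Mrps25, Mrps34 and Mrps18b, over 50% of the counted transcript overlapped exons of another annotated gene, and no source used here states a strand setting for the counting, so their reads cannot be told apart from those of the partner. For 51 genes there was no such overlap. Processed pseudogenes are annotated for Mrpl23, Mrpl48 and Mrps36, and reads of near-identical copies may be split.

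In wild type fat the members were abundant messages. Per kilobase of the counted transcript, the median member stood at the 83.7th percentile of all tested genes in late high-fat fat and at the 88.0th in inguinal fat, with the other tables between. The highest member exceeded the lowest by 36.6-fold in inguinal fat and by 61.5-fold in late adipocytes. In WT-labelled late high-fat fat the 5 highest were Mrps6 at 6271 ± 865 (normalised value per kilobase, SD, n = 3), Mrpl20 at 5655 ± 416, Mrpl33 at 4385 ± 276, Mrpl42 at 3590 ± 351 and Mrpl30 at 3476 ± 146. Mrps6 and Mrpl20, and Mrpl42 and Mrpl30, were neighbours in this order that lay within 1 SD of each other. The 5 lowest there were Mrps35 at 227 ± 30.1, Mrps5 at 221 ± 35.8, Mrps36 at 219.7 ± 4.43, Mrpl47 at 163 ± 16.6 and Mrpl19 at 145 ± 2.83.

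Mrpl20 was among the 5 highest in all 5 tables, and Mrpl19, Mrpl47 and Mrps5 were among the 5 lowest in all 5. In WT-labelled inguinal fat Mrpl12, a protein of the ribosome's stalk, was the highest at 2761 ± 479 per kilobase (SD, n = 4), and Mrps6 was not among the 5 highest. The counted transcripts of those 3 genes are long, at 5000, 3364 and 4481 bases. Mrps36, at 701 bases, was also among the 5 lowest in early and late high-fat fat; its product is now assigned to the 2-oxoglutarate dehydrogenase complex rather than to the ribosome.

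No member passed an adjusted p of 0.05 in any of the 5 comparisons of KO-labelled with WT-labelled samples by limma, with adjustment over all genes of a table. Most members shared a sign within a table, and that sign differed between tables. The median log2 fold change over the 78 members was 0.29 in chow fat, −0.17 in early high-fat fat, 0.20 in late high-fat fat, −0.29 in late adipocytes and −0.06 in inguinal fat. Over all genes tested the medians were 0.11, −0.09, −0.03, −0.04 and 0.01 in the same order. No member had the same sign in all 5 tables, 5 were positive in 4 of them and 9 in only 1. In bulk tissue, fewer cells of a type and less RNA per cell cannot be told apart.

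**Figure D1:**
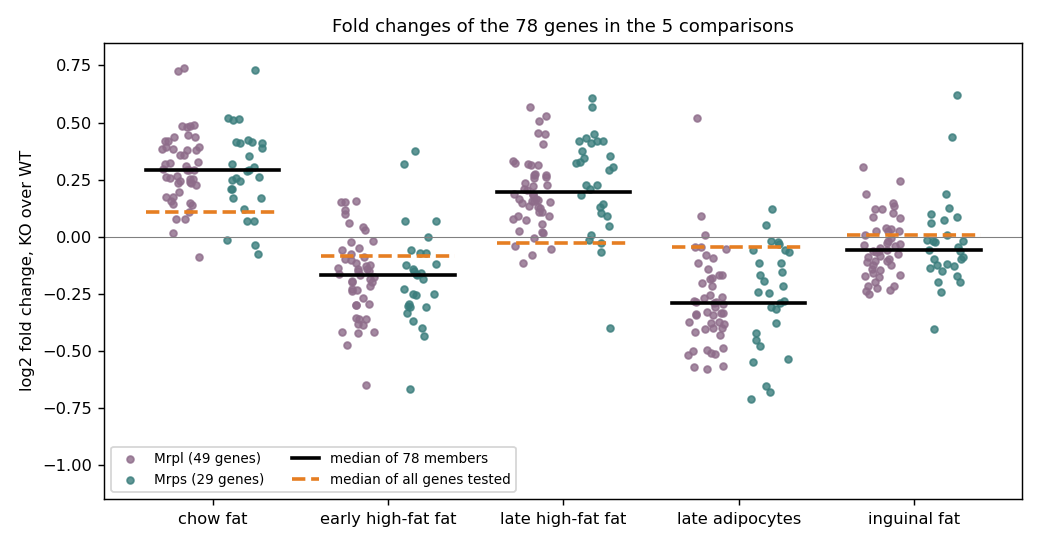
Log2 fold change of each of the 78 genes, KO-labelled over WT-labelled, on the log2(value + 1) scale, in the 5 comparisons. Points are genes, black lines the members' medians and dashed orange lines the medians of all genes tested; members lie mostly above 0 in chow fat and late high-fat fat and mostly below 0 in early high-fat fat and late adipocytes.

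The mean of log2(value + 1) over the 78 members gives each sample's level. In chow fat it was 9.11, 9.13 and 9.40 in KO-labelled samples 1 to 3, against 8.84, 8.74 and 9.18 in WT-labelled samples. In late adipocytes it was 10.16 and 10.10 in KO-labelled samples, against 10.30, 10.44 and 10.47 in WT-labelled samples. The groups overlapped in chow fat and were apart in late adipocytes.

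In early high-fat fat the levels were 8.96, 9.28, 9.17 and 9.06 in KO-labelled samples, against 8.90, 9.15, 9.46 and 9.65 in WT-labelled samples. WT-labelled 1 was the lowest of the 8, and WT-labelled 4 the highest: it held the highest value of 68 of the 78 genes. In late high-fat fat the levels were 10.86, 10.41 and 10.76 in KO-labelled samples, against 10.43, 10.51 and 10.47 in WT-labelled samples. KO-labelled 1 held the highest value of 51 genes and KO-labelled 2 the lowest value of 34. In inguinal fat the levels were 9.94, 9.48, 9.11 and 9.55 in KO-labelled samples, against 9.36, 9.50, 9.73 and 9.65 in WT-labelled samples. Both extremes were KO-labelled: sample 1 held the highest value of 61 genes and sample 3 the lowest of 67.

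**Figure D2:**
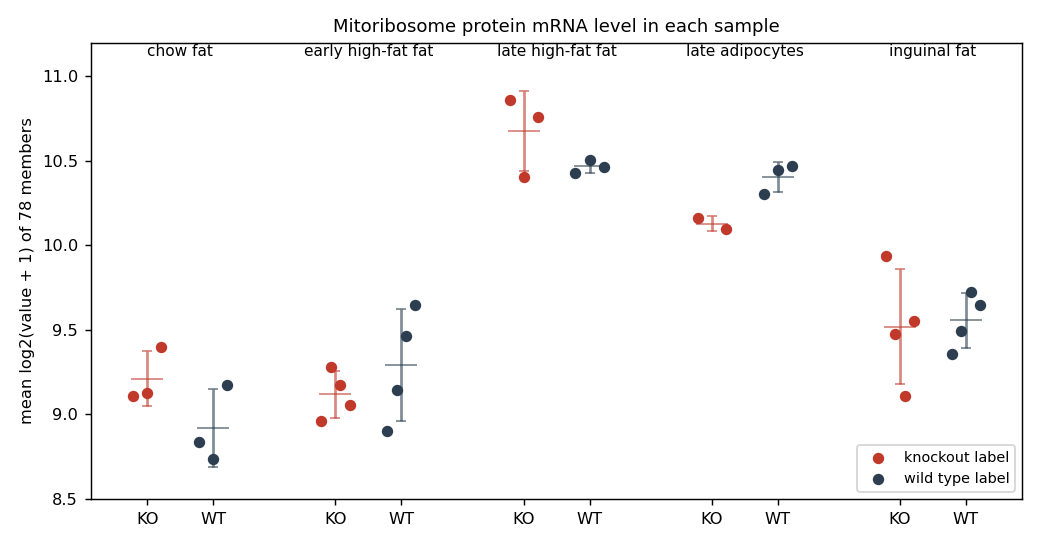
Mean log2(value + 1) of the 78 genes in each of the 33 samples, with KO-labelled samples left of WT-labelled ones; bars are group means and SD, with 2 to 4 samples a group. The tables were normalised separately, so only samples of 1 table share a scale; KO-labelled late adipocytes, at 10.16 and 10.10, lie below all 3 WT-labelled ones.

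The mean level of the nuclear oxidative phosphorylation genes, over those tested in a table, ran beside that of the members in most samples. In inguinal fat it was 12.20, 11.88, 11.40 and 12.01 in KO-labelled samples, against 11.65, 11.96, 12.09 and 12.13 in WT-labelled samples. In early high-fat fat it was 10.64, 10.89, 10.89 and 10.76 in KO-labelled samples, against 10.48, 10.74, 11.17 and 11.30 in WT-labelled samples. The lowest and the highest library were the same for both gene groups in early high-fat fat and in inguinal fat.

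**Figure D3:**
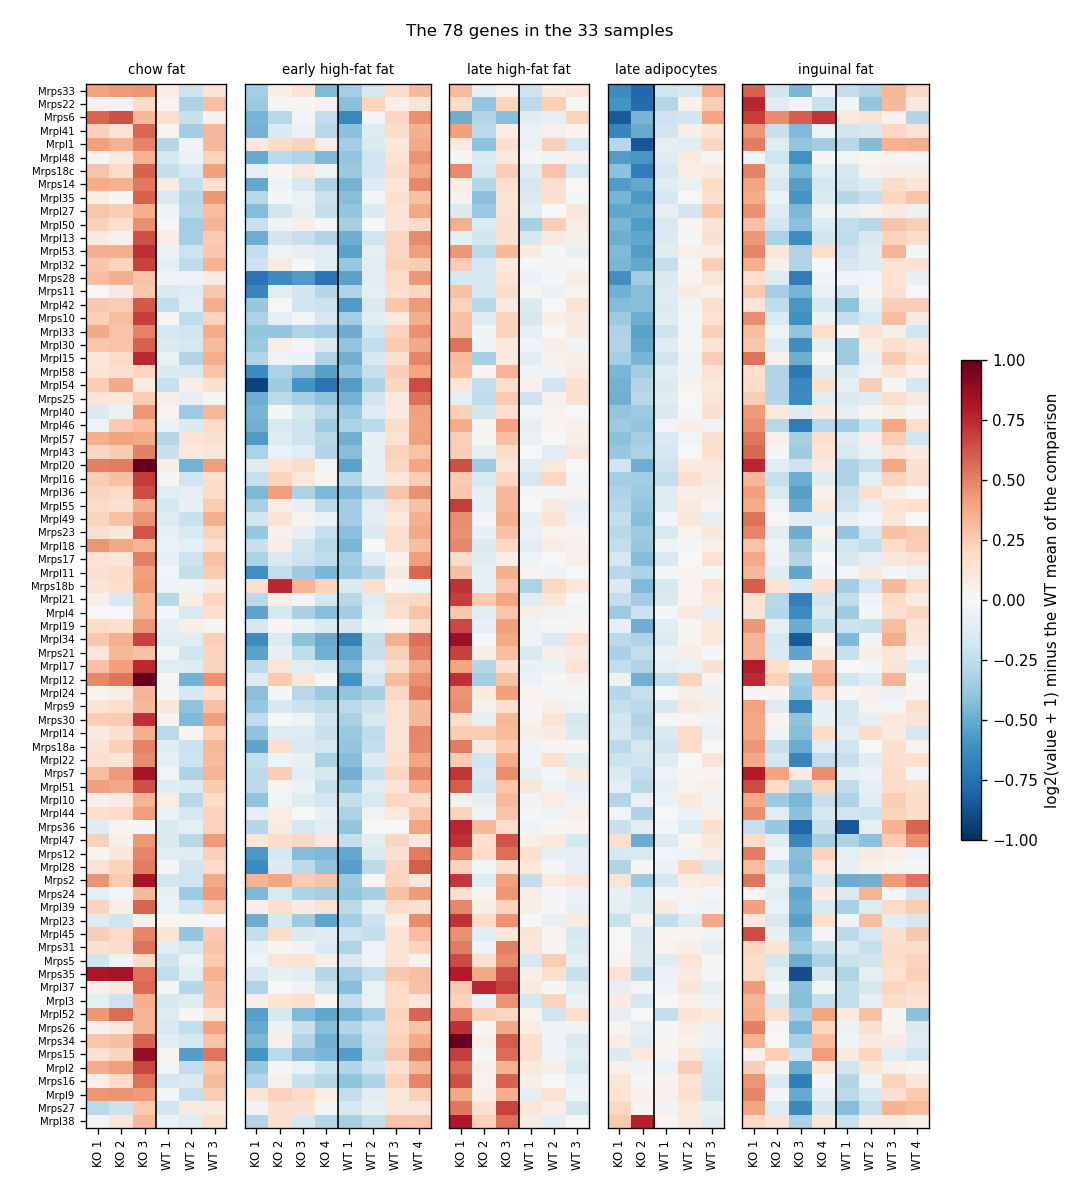
Log2(value + 1) of each of the 78 genes (rows, ordered by fold change in late adipocytes) in each of the 33 samples (columns, KO-labelled left of the black line), minus the mean of the WT-labelled samples of the same table. Whole columns share a colour, as in WT-labelled early high-fat fat 1 and 4 or KO-labelled inguinal fat 1 and 3, while Mrps6 and Mrpl38 differ from their columns.

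In chow fat 74 of 78 members had a positive log2 fold change, against 61.7% of all 15617 genes tested. Under TMM scaling, another way to set library sizes, 69 members were positive, against 51.2% of all genes. Their median was then 0.19, against 0.01 for all genes. None passed the threshold by limma, where 0% of all genes did. At an unadjusted p under 0.05 there were 13 members, all higher, or 16.7%, against 9.64% of all genes. That count rested on single libraries: it was 32 (41.0%, against 12.8% of all genes) without WT-labelled 3 and 5 (6.41%, against 16.6%) without KO-labelled 3. It was 3 (3.85%, against 3.24%) without KO-labelled 1, 2 (2.56%, against 3.17%) without KO-labelled 2, 4 (5.13%, against 5.17%) without WT-labelled 1 and 6 (7.69%, against 12.4%) without WT-labelled 2. With KO-labelled 1 and 2 as 1 replicate it was 1 (1.28%, against 3.20%), so the share of members was not above that of all genes in most of these settings. With all samples it was 7 (8.97%, against 9.12%) without the variance trend and robust estimation of limma. Under TMM scaling it was 13 (16.7%, against 9.50%). The 3 KO-labelled values lay above all 3 WT-labelled values for 24 members and below them for none, against 12.4% and 4.57% of all genes. By edgeR on recovered reads 0 members passed, and by DESeq2 2 passed, Mrpl51 and Mrps35, both higher, where DESeq2 called 3.84% of all genes higher.

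Mrps35, a small-subunit protein found only in mitochondria, had 731, 735 and 604 in KO-labelled chow fat, against 349, 385 and 527 in WT-labelled chow fat, with no overlap. Its log2 fold change was 0.73 ± 0.19 (SE, limma adjusted p = 0.504). Mrpl52 had 727, 789 and 681 in KO-labelled samples, against 490, 541 and 584 in WT-labelled samples. All 3 KO-labelled values again stood above the others, at 0.45 ± 0.13 (SE, limma adjusted p = 0.504). Mrpl18, a large-subunit protein that binds the RNA of the central protuberance, was 652 ± 22.7 in KO-labelled and 498 ± 52.1 in WT-labelled samples (SD, n = 3 each). Mrps6, discussed below, was 1669 ± 186 in KO-labelled and 1171 ± 160 in WT-labelled samples.

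The largest fold change in chow fat was that of Mrpl12, which averaged 2180 ± 638 in KO-labelled and 1317 ± 414 in WT-labelled samples (SD, n = 3 each), at 0.74 ± 0.31 (SE, limma adjusted p = 0.518). The members with a negative fold change numbered 4. These were Mrpl23, Mrps27, Mrps36 and Mrps5, all between −0.09 and −0.02. A chi-square measure of difference between libraries was 2.54 to 3.06 between KO-labelled 1 and 2. It was 131 to 175 between either and KO-labelled 3, and at most 1.16 within a KO-labelled chow replicate. Among the other groups compared, its lowest value between replicates was 5.65, in KO-labelled early high-fat fat. SDs, SEs and counts without overlap in chow fat treat KO-labelled 1 and 2 as separate samples. With them as 1 replicate the members' median was 0.34, with 76 positive. KO-labelled 1 and 2 carried the epididymis markers together with WT-labelled 2. Without those 3 libraries, which leaves 1 KO-labelled and 2 WT-labelled samples, 77 members were positive and the median was 0.39; with KO-labelled 3 left out it was 0.18. Cell markers differed as well, with none called and none at 0. The summed adipocyte markers, 7 of 8 positive, were 590554 to 887492 in KO-labelled and 229797 to 669580 in WT-labelled samples. The summed brown and beige markers did not overlap, at 281 to 553 in KO-labelled and 623 to 1329 in WT-labelled samples, with 3 of the 4 tested negative. All 6 macrophage markers and all 4 mesothelial markers were negative, and all 4 endothelial markers positive, with sums that overlapped between the labels. The part of these markers in the members' values was not tested.

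In late high-fat fat 69 of 78 members had a positive log2 fold change, against 46.9% of all 17685 genes tested. None passed by limma, where 0% of all genes did. At an unadjusted p under 0.05, 9 members were higher and 1 lower, or 12.8% in all, against 9.19% of all genes. Without KO-labelled 2 there were 33 higher and 1 lower (43.6%, against 11.6% of all genes). Without any 1 of the other 5 samples there were 3 to 5 higher and 0 or 1 lower, and the share of members was below that of all genes each time. It was 3.85%, against 7.01% of all genes, without KO-labelled 1, and 3.85%, against 5.66%, without WT-labelled 3. By edgeR 0 passed and by DESeq2 2 passed, Mrpl37 and Mrps35, both higher, beside 1.2% of all genes. The groups did not overlap for 14 members higher and 1 lower, against 7.32% and 9.14% of all genes.

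Mrps35 led here as well, with 1629, 1230 and 1468 in KO-labelled samples, against 984, 1049 and 807 in WT-labelled samples, and 0.61 ± 0.16 (SE, limma adjusted p = 0.407). Mrpl37, a large-subunit protein found only in mitochondria, had 2927, 4155 and 3938 in KO-labelled samples, against 2624, 2469 and 2263 in WT-labelled samples. Its groups did not overlap, at 0.57 ± 0.16 (SE, limma adjusted p = 0.423). Mrpl38, a protein of the central protuberance, had 2869, 1925 and 2403 in KO-labelled samples, against 1753, 1532 and 1651 in WT-labelled samples. Mrpl21 was 1178 ± 184 in KO-labelled and 858 ± 73.8 in WT-labelled samples (SD, n = 3 each).

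Mrps6 was the 1 member below an unadjusted p of 0.05 in the other direction, with 3750, 4299 and 3935 in KO-labelled samples, against 4842, 4926 and 6149 in WT-labelled samples. All 3 KO-labelled values were below the others, at −0.40 ± 0.14 (SE, limma adjusted p = 0.479). The next negative members by p, Mrpl27, Mrps28 and Mrpl35, lay between −0.12 and −0.07. The members' median was 0.11 without KO-labelled 1, the sample with the fewest detected genes at 18206, against 21839 to 23884 in the other 5 samples. With only the libraries of little epididymis RNA, which leaves KO-labelled 1 and 3 WT-labelled samples, it was 0.39 and 73 members were positive. The summed brown and beige markers did not overlap, at 1153 to 1921 in KO-labelled and 2261 to 3207 in WT-labelled samples, with 3 of the 4 tested negative. All 6 macrophage, 4 B cell, 4 T cell and 4 mesothelial markers were negative, and all 4 endothelial and 7 of 8 adipocyte markers positive, with sums that overlapped between the labels. None of these was called or at 0, and their part in the members' values was not tested.

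Late adipocytes showed the opposite sign: 5 of 78 members had a positive log2 fold change and 73 a negative one, against 46.7% positive of all 14248 genes tested. No member passed by limma, where 0.632% of all genes did. At an unadjusted p under 0.05, 31 members were lower and 1 higher, or 41.0%, against 24.2% of all genes. Without KO-labelled 2 there were 7 lower (8.97%, against 18.0% of all genes), and without WT-labelled 2 there were 12 lower and 1 higher (16.7%, against 18.1%). Without KO-labelled 1 there were 10 lower and 1 higher (14.1%, against 10.8%). Without WT-labelled 1 there were 30 lower (38.5%, against 20.5%), and without WT-labelled 3 there were 25 lower and 1 higher (33.3%, against 26.2%). The share of members was thus below that of all genes without KO-labelled 2 or without WT-labelled 2, and above it without any 1 of the other samples. With all samples but without the variance trend and robust estimation of limma, 16 were lower (20.5%, against 21.4%). Under TMM scaling 21 were lower and 1 higher (28.2%, against 23.5%). The 2 KO-labelled values lay below all 3 WT-labelled values for 52 members and above them for 1, against 27.3% and 20.7% of all genes. By edgeR 0 members passed. By DESeq2 8 passed, all lower, beside 5.49% of all genes: Mrpl13, Mrpl35, Mrpl41, Mrpl48, Mrpl50, Mrpl53, Mrps14 and Mrps22.

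Mrpl48 had 848 and 837 in KO-labelled late adipocytes, against 1147, 1337 and 1276 in WT-labelled late adipocytes, and −0.57 ± 0.13 (SE, limma adjusted p = 0.0938). Mrpl41 had 1039 and 1153 in KO-labelled samples, against 1438, 1698 and 1788 in WT-labelled samples, and −0.58 ± 0.15 (SE, limma adjusted p = 0.106). Mrps14, a small-subunit protein with a bacterial counterpart, had 1333 and 1376 in KO-labelled samples, against 1819, 1869 and 2234 in WT-labelled samples. In all 3 genes every KO-labelled value stood below every WT-labelled one. Mrpl53 was 1254 ± 73.9 in KO-labelled samples (SD, n = 2) and 1773 ± 123 in WT-labelled samples (SD, n = 3), but its transcript lies wholly within exons of Gm42688 on the same strand. Mrps22 had 759 and 674 in KO-labelled samples, against 938, 1184 and 1362 in WT-labelled samples.

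Mrpl38 went against the other members, with 1926 and 2744 in KO-labelled late adipocytes, against 1629, 1720 and 1471 in WT-labelled late adipocytes, and 0.52 ± 0.18 (SE, limma adjusted p = 0.166). The other positive members were Mrps27, Mrpl9 and Mrps16, from 0.05 to 0.12, and Mrpl2 at 0.006, which was named after its value was seen. Markers of other cells also differed between the labels: the summed value of 4 endothelial markers was 26146 and 10861 in KO-labelled samples, against 2644, 1517 and 2822 in WT-labelled samples. All 4 were positive, none passed and none was at 0. The 4 progenitor and 4 mesothelial markers were also all positive, and the 4 tested brown and beige markers all negative, none passing. The summed adipocyte markers ranged from 1704768 to 1815464 in KO-labelled samples and from 1423014 to 1692070 in WT-labelled samples. The part of these cell markers in the members' values was not tested. The members' median lay between −0.34 and −0.26 whichever of the 5 samples was left out.

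The late high-fat fat and the late adipocytes are the same depot at the same age and diet, so their effects of the label were compared directly, a test added after the opposite medians were seen. Of 78 members 64 were positive in fat and negative in adipocytes, 5 were positive in both, 9 negative in both and 0 negative in fat with positive in adipocytes. The difference, adipocytes minus fat, was negative for all 78 members, with a median of −0.49, against −0.05 for all 14174 genes tested, of which 46.2% were positive. No member passed by the limma interaction test, where 1.66% of all genes did; 35 members had an unadjusted p under 0.05, all negative, or 44.9%, against 13.5% of all genes. Leaving out single samples gave 14 (17.9%, against 13.0%) without KO-labelled adipocytes 2 and 65 (83.3%, against 17.3%) without KO-labelled fat 2. It gave 21 and 23 without WT-labelled adipocytes 2 and 3, and 22 without WT-labelled fat 1. It gave 19 without KO-labelled fat 1 and also 19 without KO-labelled fat 3. The shares of all genes for these counts are not given here, so the counts cannot be read as above or below them. Not every single-sample setting is listed. Mrpl48 at −0.56 ± 0.16 and Mrpl21 at −0.74 ± 0.21 had the smallest p (SE, limma adjusted p = 0.123 for both).

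Deviations of same-numbered samples of fat and adipocytes from their group means correlated at 0.106 to 0.595 in the 5 pairs. The lowest were the KO-labelled pairs, at 0.269 and 0.106. The 2 KO-labelled adipocyte samples deviate from their mean by equal and opposite amounts, so the pairs are not independent. With the sample number as a block Mrpl21 and Mrpl48 passed, at adjusted p = 0.0316 and 0.0454 by limma, where 0.367% of all genes did in that direction. Without KO-labelled fat 2, Mrpl53 alone passed, at adjusted p = 0.0458, where 0.0494% of all genes did in that direction. Under TMM scaling, another way to set library sizes, Mrpl38 alone was positive, at 0.03, and the median was −0.45.

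**Figure D4:**
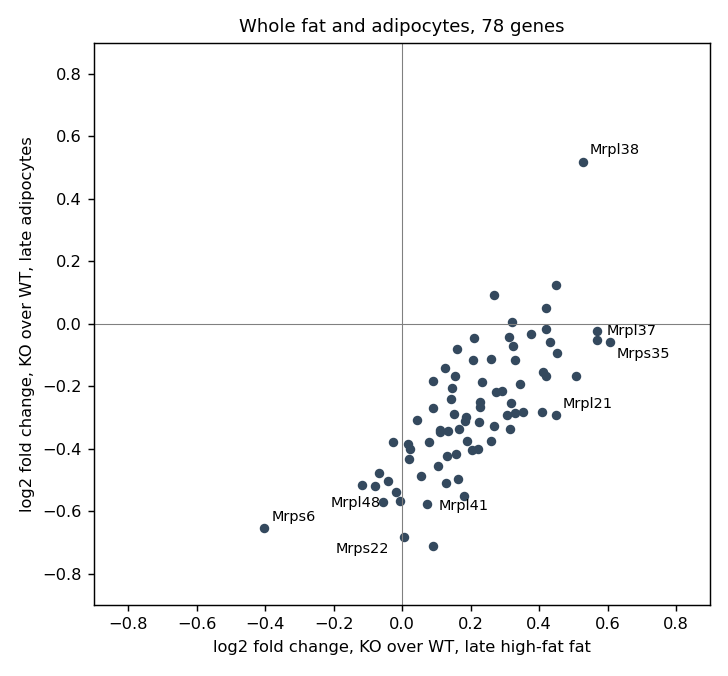
Log2 fold change of the 78 genes, KO-labelled over WT-labelled, in late adipocytes (vertical axis) against late high-fat fat (horizontal axis), on the log2(value + 1) scale. Most genes, 64 of 78, lie at the lower right; Mrpl38 is high in both and Mrps6 low in both.

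In early high-fat fat 12 of 78 members had a positive log2 fold change, against 36.9% of all 14069 genes tested. No member passed by limma, where 3.45% of all genes did. At an unadjusted p under 0.05, 2 members were higher and 5 lower, or 8.97%, against 20.8% of all genes. By edgeR 0 passed and by DESeq2 3 passed, Mrps18b and Mrps2 higher and Mrps28 lower, beside 10.5% of all genes.

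Mrps28, a small-subunit protein, had 378, 409, 427 and 380 in KO-labelled samples, against 436, 589, 728 and 857 in WT-labelled samples. It was the only member whose KO-labelled values all lay below the WT-labelled ones in this table, at −0.67 ± 0.18 (SE, limma adjusted p = 0.0837), where 10% of all genes did so. Mrpl54 had 575, 853, 721 and 658 in KO-labelled samples, against 740, 882, 1270 and 1713 in WT-labelled samples, which overlap. Mrpl58, the ribosome-bound peptidyl-tRNA hydrolase that frees stalled chains, was 464 ± 44.1 in KO-labelled and 661 ± 173 in WT-labelled samples (SD, n = 4 each). Mrpl4 was 791 ± 84.9 in KO-labelled and 1026 ± 195 in WT-labelled samples.

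Mrps18b, 1 of 3 homologues of the bacterial S18 protein, had 328, 489, 367 and 341 in KO-labelled samples, against 262, 325, 294 and 281 in WT-labelled samples. Mrps2 had 490, 507, 461 and 471 in KO-labelled samples, against 299, 391, 451 and 421 in WT-labelled samples. These were the 2 members with all KO-labelled values above the others, against 4.04% of all genes, at 0.38 ± 0.14 and 0.32 ± 0.13 (SE, limma adjusted p = 0.160 and 0.193). Mrps18b is among the members overlapped by an antisense gene. Mrpl9 and Mrpl47 followed at 0.15 each.

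Leaving out single WT-labelled libraries moved these values. Without WT-labelled 1, 4 members passed by limma, all lower: Mrps28 at adjusted p = 0.00883, Mrpl58 at 0.0424, Mrpl4 at 0.0457 and Mrpl54 at 0.0462, where 6.08% of all genes passed in that direction. Members with an unadjusted p under 0.05 then numbered 35 lower and 1 higher (46.2%, against 31.3% of all genes), and without WT-labelled 1 and KO-labelled 1 together 17 lower and 1 higher (23.1%, against 23.9%). Without any 1 of the other 7 samples there were 1 to 8 lower and 1 to 4 higher. That was a share of 2.56% to 11.5%, against 14.5% to 22.7% of all genes, and below that of all genes each time. The members' median without WT-labelled 1 was −0.30, and it was −0.05, with 24 positive members, without WT-labelled 4. Without WT-labelled 1 and KO-labelled 1 together, Mrps28 alone passed, at adjusted p = 0.0279, where 2.26% of all genes did in that direction. The summed brown and beige adipocyte markers were 226 to 317 in KO-labelled and 629 to 1408 in WT-labelled samples, with 1 of the 4 tested markers called higher, 2 called lower and none of the 5 at 0. Of the 8 adipocyte markers 4 were positive and 4 negative, with 2 called higher. All 6 macrophage, 4 B cell, 4 T cell and 4 mesothelial markers were positive, and 3 of 4 endothelial markers negative, none called. The sums of these other lists overlapped between the labels. The part of all these markers in the members' values was not tested.

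**Figure D5:**
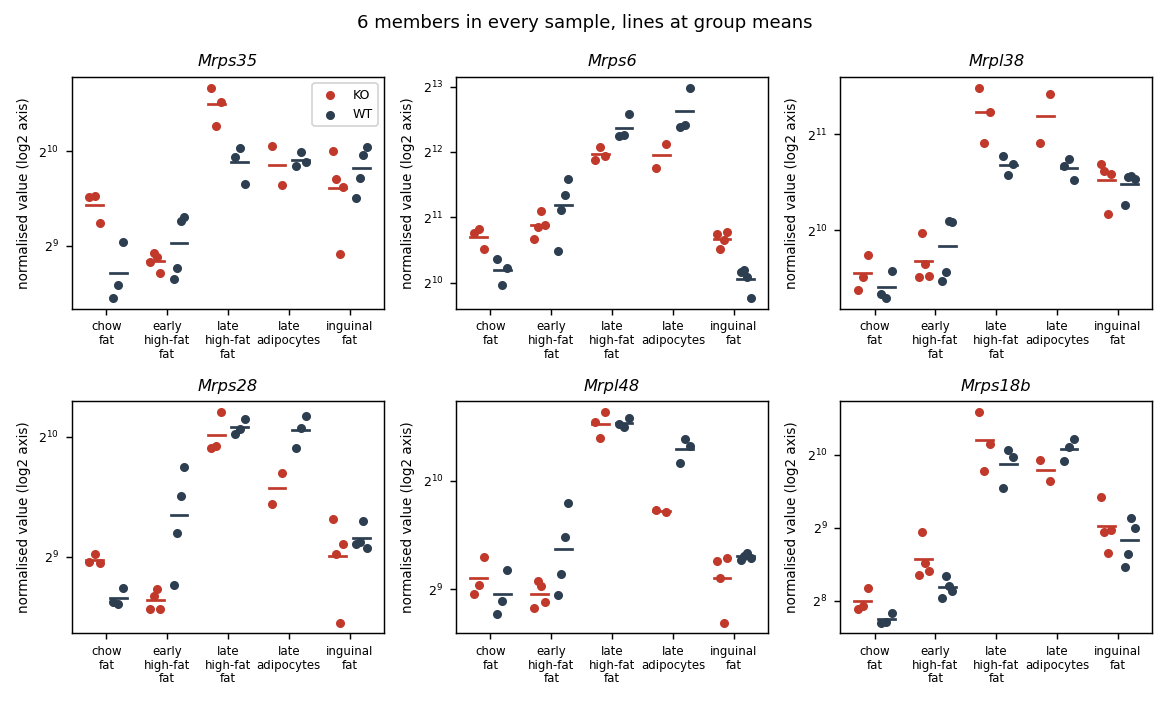
Normalised values of Mrps35, Mrps6, Mrpl38, Mrps28, Mrpl48 and Mrps18b in every sample of the 5 tables (log2 vertical axes; lines are group means, with 2 to 4 samples a group, KO-labelled left of WT-labelled). Mrps28 is lower in all 4 KO-labelled early high-fat samples, and Mrps6 is higher in KO-labelled chow and inguinal fat and lower in the KO-labelled groups of the late tables; levels of different tables do not share a scale.

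The effects of the label in early high-fat fat and chow fat were also compared. The difference, early high-fat minus chow, had a median of −0.47 over the members, against −0.18 over all 13870 genes, and 4 members were positive, against 33.9% of genes. Under TMM scaling the median of all genes was 0.02 and that of the members −0.28, with 10 positive. No member passed by limma, where 0% of all genes did, and 20 members had an unadjusted p under 0.05, all negative, or 25.6%, against 17.4% of all genes. Under TMM scaling that count was 12, all negative, or 15.4%, against 15.2%, so the share was close to that of all genes. Without TMM scaling there were 50 (64.1%, against 22.4%) when WT-labelled early high-fat fat 1 was left out. There were 44 (56.4%, against 24.0%) without WT-labelled chow fat 3. The share of members was below that of all genes without WT-labelled chow fat 1, at 6 (7.69%, against 15.1%), WT-labelled chow fat 2, at 8 (10.3%, against 19.6%), and KO-labelled chow fat 3, at 10 (12.8%, against 20.9%). It was also below without KO-labelled early high-fat fat 1, at 8 (10.3%, against 13.2%), and WT-labelled early high-fat fat 3, at 8 (10.3%, against 13.2%). There were 12 without KO-labelled or without WT-labelled early high-fat fat 4, or 15.4%, against 13.4% and 13.3% in that order. Mrps28, at −0.98 ± 0.25, and Mrps35, at −0.89 ± 0.25, had the smallest p (SE, limma adjusted p = 0.177 and 0.184). Mrps28 passed, at adjusted p = 0.0431, without WT-labelled early high-fat fat 1, where 0.0875% of all genes did in that direction. Age differed between these tables as well, 11 and 19 weeks, so diet and age cannot be told apart.

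Late high-fat fat and chow fat, both at 19 weeks, were compared in the same way. The median difference, late high-fat minus chow, was −0.13 over the members and −0.10 over all 15199 genes, with 28 positive members. No member passed by limma, where 0% of all genes did, and 2 members had an unadjusted p under 0.05, both negative, or 2.56%, against 8.34% of all genes. These were Mrps6 at −0.92 ± 0.21 and Mrps28 at −0.38 ± 0.16 (SE, limma adjusted p = 0.494 and 0.561). Without single samples there were 1 to 5 negative and 0 to 3 positive. That was 1.28% to 6.41%, against 4.92% to 11.8% of all genes, and below that of all genes each time.

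In inguinal fat 25 of 78 members had a positive log2 fold change, against 51.3% of all 12418 genes tested. No member passed by limma, where 0.0322% of all genes did. At an unadjusted p under 0.05 there were 2 members, both higher, or 2.56%, against 9.04% of all genes. Without KO-labelled 1 there were 2 higher and 7 lower (11.5%, against 13.9%), and without KO-labelled 3 there were 4 higher (5.13%, against 9.06%). By edgeR 0 passed and by DESeq2 1 passed, Mrps6, higher, beside 1.41% of all genes. The sign of the members' median rested on KO-labelled 3: without it the median was 0.08 with 58 positive members, and without KO-labelled 1 it was −0.21 with 9. The summed T cell markers, all 4 positive, were 229 to 430 in KO-labelled and 49.4 to 129.5 in WT-labelled samples, without overlap. All 6 macrophage markers and 7 of 8 adipocyte markers were positive, and all 5 brown and beige and all 4 progenitor markers negative, with sums that overlapped. The brown and beige sum was 10608 to 29543 in KO-labelled and 16247 to 79529 in WT-labelled samples. None of these was called or at 0, and their part in the members' values was not tested.

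Mrps6 had 1714, 1470, 1606 and 1744 in KO-labelled inguinal fat, against 1140, 1172, 1091 and 868 in WT-labelled inguinal fat. It was the 1 member without overlap in this table, where 3.26% of all genes were higher and 2.22% lower in this way, at 0.62 ± 0.13 (SE, limma adjusted p = 0.132). Mrps7 had 3779, 2875, 2311 and 2997 in KO-labelled samples, against 2041, 2085, 2469 and 2130 in WT-labelled samples, and 0.44 ± 0.16 (SE, limma adjusted p = 0.437). Mrpl17 and Mrpl12 followed at 0.30 and 0.24. The negative members of smallest p were Mrpl48, Mrps36, Mrpl21 and Mrpl58, from −0.41 to −0.22, all with overlapping groups.

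Mrps6 is considered separately because its counted transcript shares exon bases with a neighbour. Slc5a3, a sodium and myo-inositol cotransporter gene on the same strand, shares 159 bases, or 18.8% of the transcript, and Gm49711 shares 305 bases. Slc5a3 was looked at after the values of Mrps6 were seen. It averaged 2863 in KO-labelled and 5110 in WT-labelled late high-fat fat, at −0.81 ± 0.17, and 2237 in KO-labelled and 3607 in WT-labelled late adipocytes, at −0.71 ± 0.19 (SE). It averaged 646 in KO-labelled and 474 in WT-labelled inguinal fat, at 0.44 ± 0.16, and 1020 in KO-labelled and 783 in WT-labelled chow fat, at 0.39 ± 0.19 (SE). These signs are those of Mrps6 in the same tables, and reads of the shared bases cannot be told apart.

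Members were also split by name, which is not quite a split by subunit. Mrps30 and Mrps18a sit in the large subunit, and Mrps36 is assigned outside the ribosome. The medians of Mrpl and Mrps genes were 0.29 and 0.29 in chow fat, −0.17 and −0.17 in early high-fat fat, 0.17 and 0.29 in late high-fat fat, −0.31 and −0.24 in late adipocytes, and −0.06 and −0.06 in inguinal fat. For the 46 members listed with a bacterial counterpart and the 31 listed as specific to mitochondria the medians were 0.29 and 0.29 in chow fat, and −0.29 and −0.32 in late adipocytes. The second list includes Mrps18b, described above as a homologue of bacterial S18, so it is not strictly without bacterial relatives.

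Members with particular roles varied around the median of their table. Mrps12, at the decoding centre, was 1538 ± 198 in KO-labelled and 1154 ± 113 in WT-labelled late high-fat fat (SD, n = 3 each). Mrpl3, near the peptidyl transferase centre, was 476 ± 103 in KO-labelled and 468 ± 83.5 in WT-labelled chow fat. Mrps30 and Mrps18a, which carry small-subunit names but sit in the large subunit, had −0.24 and −0.22 in late adipocytes. Mrps18c had 687 ± 92.3 in KO-labelled late adipocytes (SD, n = 2) and 1005 ± 96.2 in WT-labelled ones (SD, n = 3), at −0.55 ± 0.16 (SE, limma adjusted p = 0.122). Mrpl44, a protein of RNase III type, and Mrpl45 had −0.17 and −0.08 there.

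Other genes of mitochondrial translation were read beside the members. None of the 5 mitoribosome proteins with other names passed in any table. In late adipocytes Chchd1 was 677 ± 74.6 in KO-labelled samples (SD, n = 2) and 966 ± 128 in WT-labelled samples (SD, n = 3), and Ptcd3 was 1454 ± 178 in KO-labelled and 2026 ± 105 in WT-labelled samples. These were named after their values were seen, and the median of the 5 was −0.32. Of 16 translation factors, 25 assembly factors and 17 mitochondrial aminoacyl-tRNA synthetases none passed in any table. Their medians in late adipocytes were −0.14, −0.01 and 0.01, and in late high-fat fat 0.18, 0.27 and 0.25.

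Of the nuclear oxidative phosphorylation genes 1 passed, Cox7a1, a subunit isoform of complex IV in heart, muscle and brown fat, which fell in early high-fat fat to 43.7 ± 9.02 in KO-labelled samples, against 143.6 ± 64.1 in WT-labelled samples (SD, n = 4 each; limma adjusted p = 0.0364). Their medians were 0.44 in chow fat, −0.12 in early high-fat fat, 0.27 in late high-fat fat, −0.17 in late adipocytes and −0.09 in inguinal fat. No cytosolic ribosomal protein gene passed. Their medians were 0.52, −0.28, 0.26, −0.17 and 0.11 in the same order, so their sign was that of the members in each of these tables other than inguinal fat.

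Among 10 regulators of nuclear genes for mitochondria 2 passed in early high-fat fat. Ppargc1b, a coactivator of oxidative genes, rose to 60.8 ± 6.67 in KO-labelled samples, against 24.6 ± 4.27 in WT-labelled samples (SD, n = 4 each; limma adjusted p = 0.00668). Myc rose to 254 ± 19.5 in KO-labelled samples, against 113 ± 21.9 (SD, n = 4 each; limma adjusted p = 0.00407). In late adipocytes Myc rose to 5147 ± 59.2 in KO-labelled samples (SD, n = 2), against 695 ± 299 in WT-labelled samples (SD, n = 3; limma adjusted p = 0.0368). Nrf1, which encodes the factor of the motif described above, was 407 ± 21.9 in KO-labelled and 261 ± 13.8 in WT-labelled late adipocytes, without passing (limma adjusted p = 0.112). No regulator passed in the other 3 tables.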

How the data were processed

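RNA of fat and isolated adipocytes was sequenced with a stranded mRNA kit, per the labels' protocols. The build GRCm38.p4 and the tools DESeq 1.8.3, HTSeq 0.5.3, STAR 2.4.0k, bcl2fastq 2.17 and SAMtools stand, without roles, in the submitters' processing notes. The deposited tables hold a signal per transcript, which the values show to be read counts divided by 1 size factor per library; 96 of 99 libraries gave whole reads for 100% of values within a tolerance of 0.01. Up to 4 libraries of 1 replicate were averaged. Of 97669 transcripts, 698 matched no gene and held 0.277% to 0.357% of values by table. A single column matched no label and was not used, and the last KO-labelled adipocyte sample was not analysed here.

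Each gene was represented by its transcript of highest mean, with genes named from GENCODE M21. The main test was limma 3.58.1 with a variance trend and robust estimation on log2(value + 1), for genes of mean 10 or more, with Benjamini-Hochberg adjustment over all genes of a table; fold changes on this scale understate those of low genes. edgeR 4.0.16 and DESeq2 1.42.0 ran on the recovered reads as alternatives, in R 4.3.3. The tests were tested on simulated data with known changes. Named in the text were, per table, the 4 higher and 4 lower members of smallest p, the 5 highest and 5 lowest per kilobase in late high-fat fat, members of known role, and, for differences between tables, members past the threshold or the 2 of smallest p. The members and lists were chosen with earlier results of these data known. Within tables, the deviations of same-numbered KO-labelled and WT-labelled samples correlated at −0.521 to 0.527, with both signs in each table. The main test did not pair samples by number. Between late high-fat fat and late adipocytes the deviations of same-numbered samples correlated at 0.106 to 0.595. The ± values are SDs among samples or SEs of the limma fit to those samples. The tables were tested separately because they were normalised separately.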

Additional observations from a re-analysis of the deposited data

How the results depend on the processing

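The count of members past the threshold was 0 in all 5 comparisons by limma and edgeR. DESeq2 called 2 in chow fat, 3 in early high-fat fat, 2 in late high-fat fat, 8 in late adipocytes and 1 in inguinal fat. With the replicate number as a block, 0 members were called in each of the 5 tables. In chow fat the block gave 25 members at an unadjusted p under 0.05 by limma (32.1%, against 11.8% of all genes). The share was 12.8% against 20.6% in early high-fat fat and 7.69% against 7.75% in late high-fat fat. It was 32.1% against 28.4% in late adipocytes and 1.28% against 8.01% in inguinal fat. For adipocytes minus late high-fat fat, the block called 2 members. Leaving out WT-labelled and KO-labelled 1 of early high-fat fat called 1. Positive members in early high-fat fat numbered 21 under TMM, 20 by edgeR and 20 by DESeq2, and in late adipocytes 13, 13 and 8. TMM gave 10 positive members for early high-fat minus chow and 1 for adipocytes minus fat. The median in late high-fat fat was 0.39 with only the libraries of little epididymis RNA, a choice made after seeing the data.

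Leaving out single samples gave 0 to 4 calls in early high-fat fat, 0 to 1 for early high-fat minus chow and 0 to 1 for adipocytes minus fat. Medians ranged from 0.18 to 0.43 in chow fat, −0.30 to −0.05 in early high-fat fat, 0.11 to 0.33 in late high-fat fat, −0.34 to −0.26 in late adipocytes, −0.21 to 0.08 in inguinal fat, −0.61 to −0.36 for early high-fat minus chow, −0.26 to 0.02 for late high-fat minus chow and −0.63 to −0.39 for adipocytes minus fat. Positive members numbered 69 to 77, 9 to 24, 58 to 76, 4 to 13, 9 to 58, 2 to 6, 16 to 40 and 0 to 1 in that order.

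Members near 0 changed sign. In chow fat, with only the libraries of little epididymis RNA, Mrpl23 was 0.049, Mrps27 0.31 and Mrps5 0.15; with KO-labelled 1 and 2 as 1 replicate Mrps27 was 0.0098 and Mrps5 0.035. In late high-fat fat Mrpl35 was 0.044 with little epididymis RNA. With the replicate block in late adipocytes Mrpl9 was −0.013 and Mrps16 −0.041. Leaving out single samples gave −0.24 to 0.022 for Mrps27, −0.11 to 0.076 for Mrps36 and −0.12 to 0.11 for Mrps5 in chow fat, −0.25 to 0.0074 for Mrpl27 and −0.18 to 0.085 for Mrpl35 in late high-fat fat, and −0.013 to 0.17 for Mrpl9 and −0.041 to 0.12 for Mrps16 in late adipocytes. The cause was not tested.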
